A study of Mus musculus with 34 samples.

Results

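Growth factor receptor and insulin signalling genes were examined in N2A cells, a mouse neuroblastoma line, as a set of 9 genes chosen by name from the 52661 genes of the expression table. The set holds the insulin-like growth factor receptor Igf1r, the insulin receptor Insr, their adaptors Irs1 and Irs2, the platelet-derived growth factor receptors Pdgfra and Pdgfrb, the neurotrophin-3 receptor Ntrk3 (TRKC), the GDNF-family receptor Ret and the receptor tyrosine kinase Alk. All 9 were found. Treatment lasted 24 h with 0.4% DMSO as the vehicle, and 34 libraries of polyA+ RNA were sequenced. DMSO alone had 3 libraries (A, B and C), each of 4 inhibitors of histone deacetylases (HDACs; Vorinostat, CI-994, BRD4884 and BRD6688) had 2 libraries (A and B), and each of 23 further compounds had 1. Those 23 comprise 7 kinase inhibitors, namely A-443654 (AKT, 0.25 µM), NVP-AEW-541 (IGF1R, 1 µM), Trametinib (MEK1 and MEK2, 1 µM), SCH-772984 (ERK, 2 µM), Crenolanib (PDGFRA and PDGFRB, 2 µM), GNF-5837 (TRK receptors, 0.5 µM) and MK-1775 (WEE1, 2 µM), and 16 other compounds, including 5-azacytidine. Compound names, doses and targets come from the supplementary data of the study, since the labels carry library codes for most compounds. All groups share the same cell line and vehicle.

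Insulin and insulin-like growth factors act through receptor tyrosine kinases that phosphorylate the adaptors IRS1 and IRS2, which recruit phosphoinositide 3-kinase and so turn on AKT. The same receptors, and RET, ALK, the TRK receptors and the PDGF receptors, also start the RAS, RAF, MEK and ERK cascade. AKT keeps FOXO transcription factors out of the nucleus, and Insr and Irs2 are known FOXO target genes, so a rise of receptor or adaptor mRNA on pathway block is a familiar form of feedback. RET and ALK are well-known receptors of sympathetic neuroblasts.

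The label of the cells was checked against markers. All 14 neuroblastoma markers were above 1 RPKM (reads per kilobase of transcript, scaled to the reads of the library) in DMSO, with a summed level of 1653.71 RPKM, against 0 of 6 fibroblast markers (summed level 0.12 RPKM), 1 of 5 glial markers (1.58 RPKM) and 0 of 5 markers of immune cells and endothelium (1.46 RPKM). These are bulk samples, in which fewer cells of a type and less RNA per cell cannot be told apart. The library of NVP-AEW-541 stood apart: it was the 1 library outside the HDAC inhibitors whose highest correlation with an HDAC inhibitor library (BRD4884 A, r = 0.979 over genes) exceeded its highest correlation with a DMSO library (r = 0.975). Why it did so was not tested. Replicate libraries correlated at 0.995 to 0.997, apart from Vorinostat A and B at 0.986.

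Levels per length came from the RPKM table, which holds 1 value per condition. For DMSO and the HDAC inhibitors that value is the authors' merge of the libraries, and it has no spread. Values per library came from exon-exon junction reads summed per gene, given as junction RPM (reads per 1000000 junction reads of the library) and tested with limma over 10448 genes (Benjamini-Hochberg adjusted p, threshold 0.05). Library totals ran from 17702718 to 40613524 junction reads, with a median of 26332957. Every comparison with DMSO shares the same 3 DMSO libraries. A compound with 1 library has no replicate of its own and is assumed to vary like the replicated conditions. The methods of the study call the replicates biological, the labels do not say whether they were separate cultures, and p-values measure the spread between these libraries.

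Under DMSO, N2A cells expressed 7 of the 9 genes above 1 RPKM. Ret was the highest at 131.73 RPKM, followed by Irs2 at 33.21 and Insr at 12.35. Ntrk3 stood at 7.92, Igf1r at 4.79, Alk at 3.01 and Irs1 at 2.94 RPKM. Both PDGF receptors were low, Pdgfra at 0.46 and Pdgfrb at 0.04 RPKM. Alk and Irs1 were the closest neighbours in this order, and their gap was smaller than the relative SD of their junction reads among the DMSO libraries (14.7% for Alk and 12.1% for Irs1, n = 3). For the other genes that relative SD was 2.40% (Ret), 9.77% (Irs2), 1.58% (Insr), 1.52% (Ntrk3), 3.56% (Igf1r), 16.02% (Pdgfra) and 37.0% (Pdgfrb). Pdgfrb had 5 to 21 raw reads per DMSO library and Pdgfra 23 to 55, against 16457 to 33924 for Ret.

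In the GENCODE annotation of GRCm38, Ret (ENSMUSG00000030110.13) lies at chr6:118151745-118197718 on the minus strand, Irs2 (ENSMUSG00000038894.7) at chr8:10984681-11008458 minus and Insr (ENSMUSG00000005534.10) at chr8:3122061-3279617 minus. Ntrk3 (ENSMUSG00000059146.12) lies at chr7:78175959-78738012 minus, Igf1r (ENSMUSG00000005533.10) at chr7:67952827-68233668 plus and Alk (ENSMUSG00000055471.7) at chr17:71868972-72604627 minus. Irs1 (ENSMUSG00000055980.2) is at chr1:82233101-82291416 minus and Pdgfra (ENSMUSG00000029231.15) at chr5:75152292-75198215 plus. Irs1 and Irs2 have 1 measured intron each, so their junction values rest on 1 splice site pair, whereas the receptors have 15 (Ntrk3) to 26 (Alk).

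Across the 27 compounds, 126 of 243 gene and compound pairs had more than 5 RPKM in the compound or in DMSO, the limit set for counting a change over 2-fold (log2 of RPKM + 0.5, no test). Of these, 6 pairs were higher and 11 lower, against a background over all genes of 2.67% higher and 3.86% lower. All the lower pairs belonged to Ret and Irs2. Both were lower under Trametinib (background 1.86% of genes lower), SCH-772984 (1.27%), Crenolanib (2.46%) and GNF-5837 (5.7%), and Ret also under MK-1775 (2.69%), 5-azacytidine (0.665%) and BTBS00065 (1.31%). The higher pairs were Pdgfra under CI-994 (background 10.2% of genes higher), BRD4884 (5.29%) and BRD6688 (5.14%), Irs1 and Irs2 under CI-994, and Ntrk3 under GNF-5837 (3.57%). Pdgfra (0.46 RPKM in DMSO) and Irs1 (2.94) could enter this count only through a compound that put them above 5 RPKM. For Pdgfra such an entry is already a rise past 2-fold, so its calls cannot be read against the background shares. Insr, Igf1r, Alk and Pdgfrb had no such pair: Insr ranged from 7.89 (RDR00572) to 19.98 RPKM (BTB13120), Igf1r from 3.04 (MK-1775) to 7.54 (BRD6688), Alk from 0.91 (5-azacytidine) to 5.28 (CI-994) and Pdgfrb from 0.02 to 1.53 (CI-994).

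**Figure D1:**
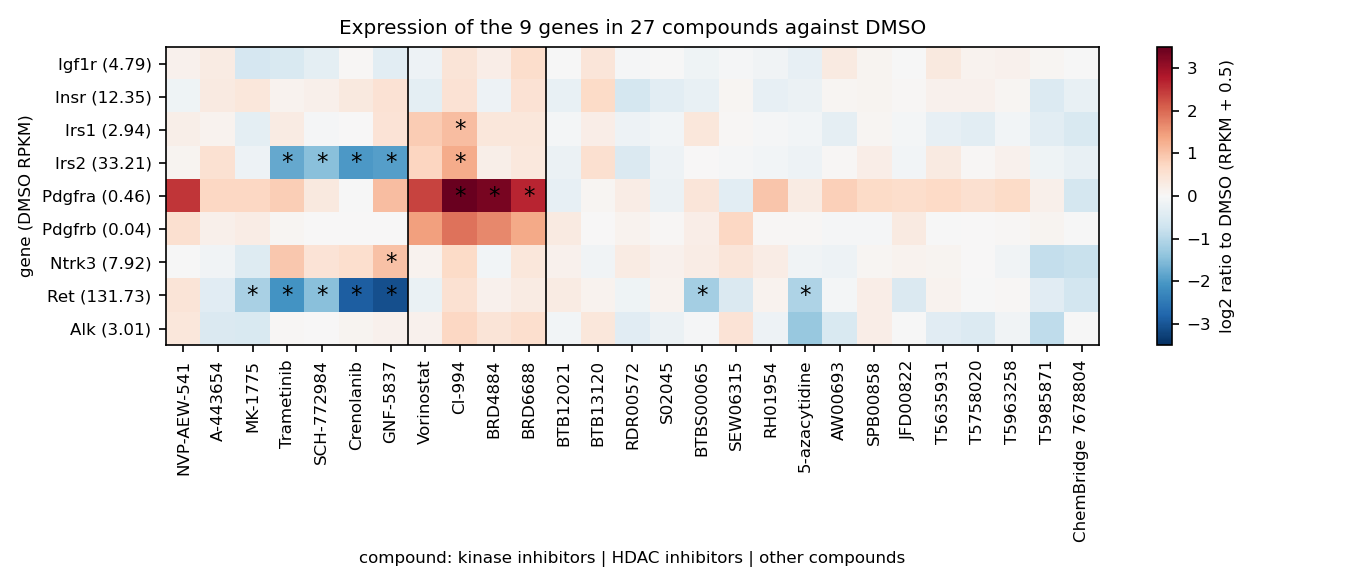
Log2 ratio of RPKM (pseudocount 0.5) of each of the 9 genes (rows, DMSO RPKM in brackets) in each of the 27 compounds (columns) against DMSO, as a colour scale, with stars on the pairs counted as changed. The 11 lower pairs lie in the rows of Ret and Irs2, and 4 of the 6 higher pairs lie in the rows of Pdgfra and Irs1. Pdgfra and Irs1 were under 5 RPKM in DMSO and entered the count only where a compound put them above it.

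The first question was which targets of the kinase inhibitors N2A cells express. Of 17 target genes, 12 were above 1 RPKM in DMSO and 10 above 5 RPKM. The downstream kinases were abundant: Akt1 stood at 92.1 and Akt2 at 40.0 RPKM, the MEK genes Map2k1 and Map2k2 at 32.64 and 41.94, the ERK gene Mapk3 at 33.56, and the cell cycle kinase Wee1 at 20.62. The receptor targets were lower, with Insr, Ntrk3 and Igf1r as given above. Under 1 RPKM were Pdgfra, Pdgfrb, the BDNF receptor Ntrk2 (0.03), and Kit (0.26) and Flt3 (0.01), receptors related to those for PDGF. The mRNA of both stated targets of Crenolanib was thus near the floor of the table.

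The second question was whether a target's own mRNA was higher under its inhibitor. Inhibition of the kinases themselves was not measured in these RNA libraries. Of 15 pairs of inhibitor and own target, 1 was higher by over 2-fold and 0 were lower. Pdgfra and Pdgfrb under Crenolanib and Ntrk2 under GNF-5837 were under 5 RPKM in both conditions, so they could not be counted as changed. Over all genes and compounds, 2.67% of pairs above 5 RPKM were higher and 3.86% lower. The 1 pair was Ntrk3 under GNF-5837 (background 3.57% of genes higher), at 16.49 against 7.92 RPKM. Ntrk3 was also at 15.61 RPKM under Trametinib, whose stated targets are MEK1 and MEK2. With a pseudocount of 1 the log2 ratio under GNF-5837 came to 0.97 and did not pass 2-fold. The supplementary data list other TRK receptors as targets of GNF-5837, and TRKC was counted with them here as a receptor of the same family. Under NVP-AEW-541, whose stated target is IGF1R, Igf1r was at 5.41 against 4.79 RPKM and Insr at 11.08 against 12.35. Under Crenolanib, Pdgfra was at 0.45 and Pdgfrb at 0.04 RPKM, as in DMSO to within 0.01. Wee1 under MK-1775 was at 12.94 against 20.62 RPKM, and Map2k1 under Trametinib at 24.83 against 32.64.

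**Figure D2:**
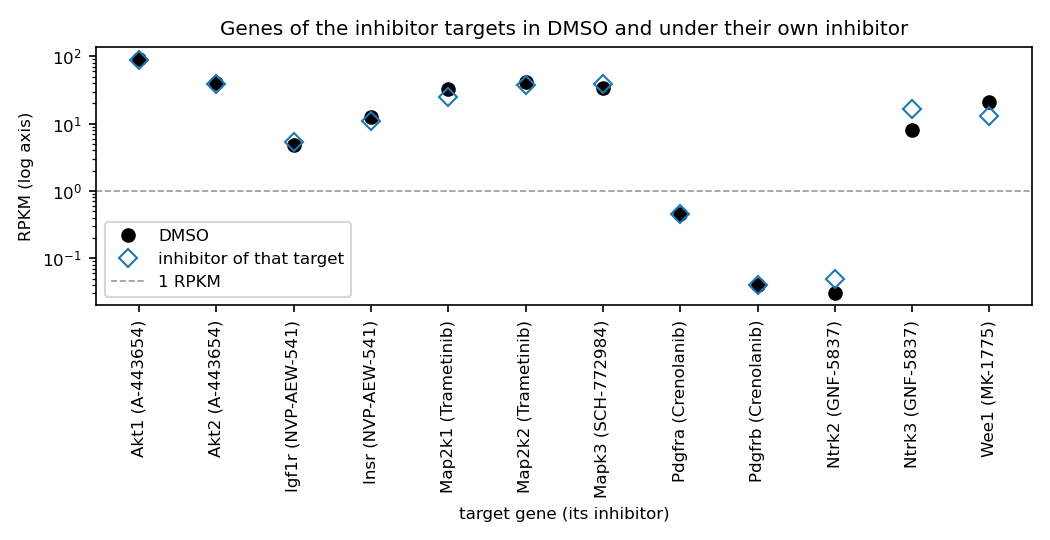
RPKM on a log axis of 12 kinase inhibitor target genes in DMSO (black) and in the library of the compound that inhibits their product (blue diamonds), with a dashed line at 1 RPKM. Of the pairs, Ntrk3 under GNF-5837 is the 1 past 2-fold, from 7.92 to 16.49 RPKM.

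Ret, which pairs with GFRA co-receptors to bind GDNF-family ligands, showed the widest range of the 9 genes in RPKM, whereas Pdgfra and Pdgfrb spanned more as a ratio. The DMSO libraries gave 835 (A), 862 (B) and 822 (C) junction RPM. Under Trametinib the value was 215, under SCH-772984 314, under Crenolanib 129 and under GNF-5837 112 junction RPM. All 4 lay far below every DMSO library. The log2 differences from DMSO were -1.96 (SE 0.07, adjusted p = 8.77e-10, limma) for Trametinib, -1.42 (8.38e-08) for SCH-772984, -2.70 (2.85e-11) for Crenolanib and -2.90 (1.43e-11) for GNF-5837. The inhibitors acting on IGF1R and AKT gave other values. Ret rose under NVP-AEW-541 to 1271 junction RPM (log2 difference 0.60, adjusted p = 5.91e-05) and was at 680 under A-443654 (-0.30, adjusted p = 0.0158, and 0.051 without DMSO replicate B). MK-1775 gave 528 (-0.67, adjusted p = 6.19e-05). Outside the kinase inhibitors, Ret fell under BTBS00065 (412 junction RPM, log2 difference -1.03, adjusted p = 1.69e-06) and 5-azacytidine (437, -0.94, adjusted p = 2.70e-05), and rose under CI-994, whose libraries A and B gave 1463 and 1481 (0.81, adjusted p = 2.35e-08). Smaller differences passed under the ChemBridge compound (-0.46, adjusted p = 0.00128), SEW06315 (-0.40, 0.00379), JFD00822 (-0.31, 0.0426, a call lost without any 1 of the DMSO libraries, at 0.0897 to 0.131), T5985871 (-0.26), BRD4884 (0.42), BRD6688 (0.42) and BTB12021 (0.41, 0.00495). In RPKM the same conditions ran from 15.04 (GNF-5837) to 190.79 (CI-994), with a median over the compounds of 119.48. The RPKM ratio of MK-1775, -1.12 on the log2 scale, came to -0.82 once centred on the median of all genes and then no longer passed 2-fold.

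Irs2, the adaptor between insulin or IGF receptors and phosphoinositide 3-kinase, was low under the same 4 inhibitors. The DMSO libraries gave 39.4, 38.7 and 32.8 junction RPM (A, B and C), whereas Trametinib gave 12.95, SCH-772984 17.1, Crenolanib 12.5 and GNF-5837 15.1. The DMSO mean was 37.0 ± 3.61 (SD, n = 3), and all 4 lay below the lowest DMSO library. The log2 differences were -1.47 (SE 0.15, adjusted p = 1.61e-05, limma) for Trametinib, -1.09 (6.27e-04) for SCH-772984, -1.52 (1.03e-05) for Crenolanib and -1.26 (2.48e-05) for GNF-5837. Under A-443654 Irs2 was at 50.9 junction RPM, above all 3 DMSO libraries, but the difference did not pass (0.46, SE 0.15, adjusted p = 0.0579). Under NVP-AEW-541 it was at 38.5, within the DMSO range (0.06, adjusted p = 0.795), and under MK-1775 at 47.5 (0.36, adjusted p = 0.0997). The HDAC inhibitors all raised it: the pairs of libraries gave 144 and 130 for CI-994, 75.3 and 97.6 for Vorinostat, 64.2 and 65.9 for BRD6688, and 53.9 and 57.5 for BRD4884. Of these, CI-994 had the greatest log2 difference, at 1.88 (adjusted p = 6.22e-09). BTB13120 was the 1 further compound under which Irs2 rose, to 68.0 junction RPM (0.88, adjusted p = 0.00133).

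The promoters of both adaptors are shown because Irs2 and Irs1 shared the rise under the HDAC inhibitors and not the fall under the MEK and ERK inhibitors. They are the 250 bases before the RefSeq start on the minus strand of GRCm38, Irs1 at chr1:82291440-82291689 and Irs2 at chr8:11008930-11009179, with CACGTG (the E-box) and TGTTTTG (the core of insulin response elements, which FOXO factors bind) in capitals.
Irs1: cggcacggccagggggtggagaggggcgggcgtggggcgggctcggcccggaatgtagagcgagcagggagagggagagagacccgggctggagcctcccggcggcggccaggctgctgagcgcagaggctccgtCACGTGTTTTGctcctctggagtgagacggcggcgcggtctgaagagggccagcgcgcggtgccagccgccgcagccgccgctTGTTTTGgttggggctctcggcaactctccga
Irs2: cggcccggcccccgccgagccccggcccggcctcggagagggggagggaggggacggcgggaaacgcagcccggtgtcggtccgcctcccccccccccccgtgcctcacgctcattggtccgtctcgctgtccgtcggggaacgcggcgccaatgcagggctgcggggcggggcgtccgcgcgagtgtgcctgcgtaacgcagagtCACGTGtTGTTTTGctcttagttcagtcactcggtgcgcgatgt
In both, CACGTG and a TGTTTTG stand next to each other: they begin 115 and 111 bases before the start of Irs1, where they overlap, and 44 and 37 bases before that of Irs2. Irs1 holds a second TGTTTTG. Of 32851 RefSeq promoters of this length, 6.02% hold CACGTG and 5.56% hold TGTTTTG on either strand. Promoters were matched for 5 of the 9 genes (Igf1r, Irs1, Irs2, Pdgfra and Alk). None of the 5 holds GTAAACA (FOXO; 3.17% of all), TGACGTCA (CRE; 1.55%) or TGANTCA (AP-1; 6.75%), and CCGGAA, a core of ETS sites found in 12.03% of all, is in those of Irs1 and Alk. These matches are descriptions of letters in a window and not of binding.

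Ntrk3 went the other way under the 4 inhibitors that lowered Ret and Irs2. The 3 DMSO libraries lay close together, at 11.1, 11.4 and 11.3 junction RPM (A, B and C). Trametinib gave 24.6, SCH-772984 18.6, Crenolanib 25.6 and GNF-5837 29.7, all above every DMSO library. The log2 differences were 1.10 (SE 0.15, adjusted p = 2.42e-04, limma), 0.70 (0.0122), 1.15 (1.16e-04) and 1.36 (1.58e-05) in the same order. A-443654 gave 11.1 junction RPM (-0.02, adjusted p = 0.964). NVP-AEW-541 gave 15.5 (0.45, adjusted p = 0.0439, a call lost without any 1 of the DMSO libraries, at 0.075 to 0.096), while its RPKM of 7.88 was next to that of DMSO. By junction reads Ntrk3 also rose under all HDAC inhibitors, most under CI-994 (28.8 and 25.8 junction RPM, log2 difference 1.24, adjusted p = 5.16e-07). In RPKM it passed 2-fold under none of them. Its log2 RPKM ratio was no larger in size than that of Irs2 under BRD4884 (0.20). The same held against Insr under Vorinostat (-0.34) and BRD6688 (0.50). The RPKM table and junction reads also differed for T5985871, with 4.21 against 7.92 RPKM but 11.1 junction RPM, as in DMSO. Outside the kinase and HDAC inhibitors, Ntrk3 also passed by junction reads under BTBS00065 (log2 difference 0.55) and SEW06315 (0.52). The call of SEW06315 was lost without any 1 of the DMSO libraries.

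**Figure D3:**
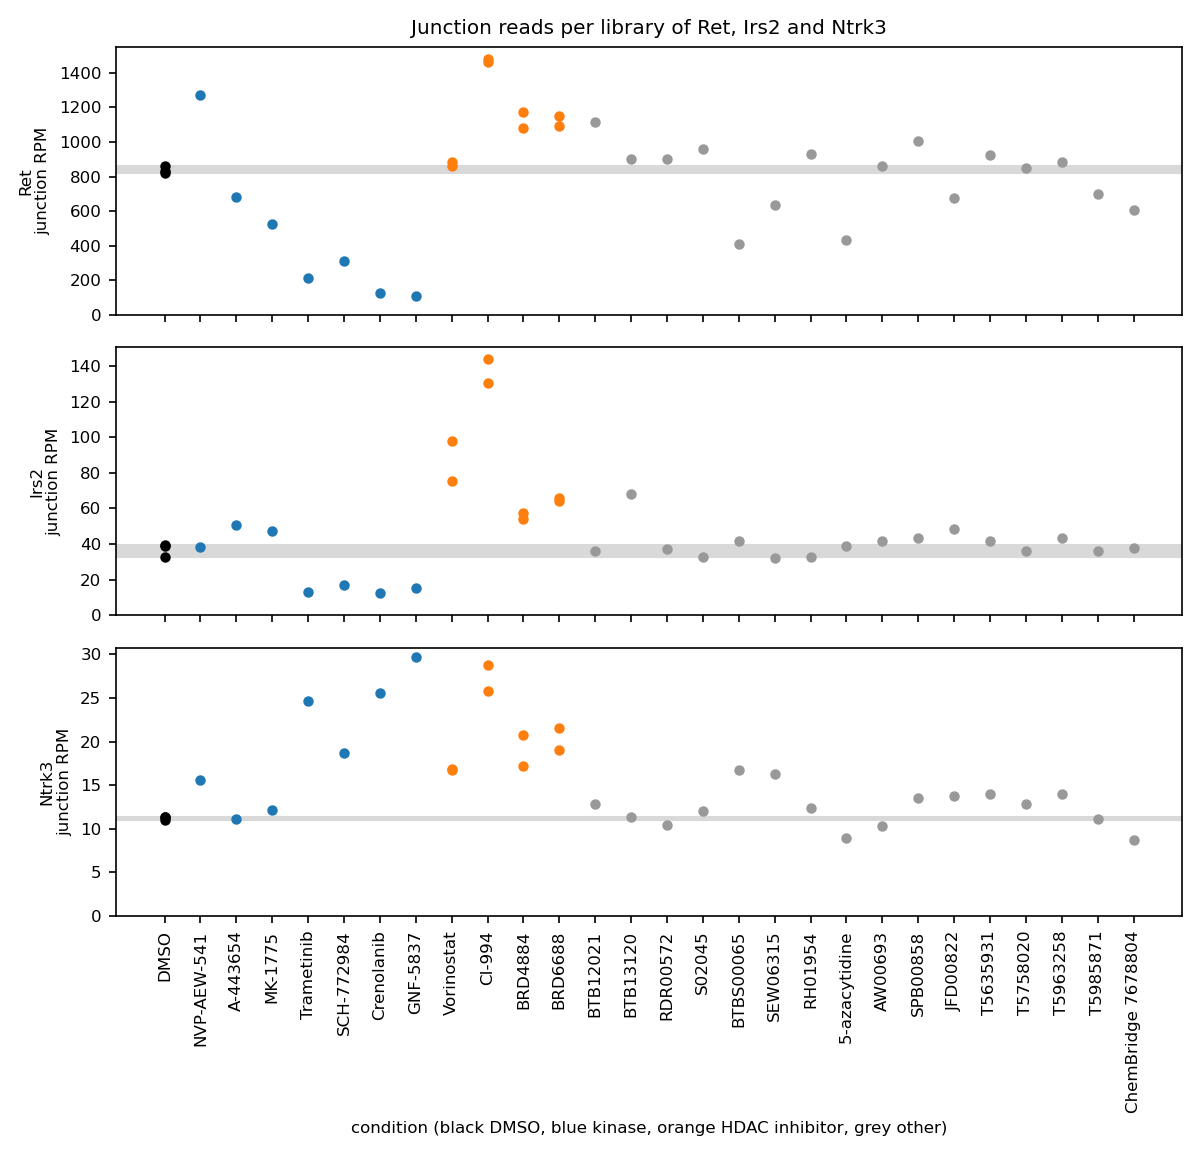
Junction RPM (reads per 1000000 junction reads) of Ret, Irs2 and Ntrk3 in each of the 34 libraries, as points coloured by class (black DMSO, blue kinase inhibitor, orange HDAC inhibitor, grey other), with a grey band for the range of the 3 DMSO libraries. Trametinib, SCH-772984, Crenolanib and GNF-5837 lie below the band for Ret (112 to 314) and Irs2 (12.5 to 17.1) and above it for Ntrk3 (18.6 to 29.7).

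Igf1r and Insr, the receptors upstream of the adaptors, moved less. For Igf1r the DMSO libraries gave 45.6, 45.2 and 42.7 junction RPM (A, B and C), A-443654 gave 63.9 and NVP-AEW-541 53.1. The rise under A-443654 passed (log2 difference 0.52, SE 0.12, adjusted p = 0.0107, limma), and the value under NVP-AEW-541 did not (0.25, adjusted p = 0.131). Trametinib lowered Igf1r to 29.98 (-0.56, adjusted p = 0.00427). For Insr the DMSO libraries gave 74.3, 72.4 and 74.6 (A, B and C). GNF-5837 gave 128 junction RPM (0.79, adjusted p = 2.85e-04) and Crenolanib 116 (0.65, adjusted p = 0.00199), both above every DMSO library. A-443654 gave 102 (0.46, adjusted p = 0.0293, a call lost without any 1 of the DMSO libraries, at 0.0633 to 0.0739), and NVP-AEW-541 gave 89.3 (0.27, adjusted p = 0.137). CI-994, BRD4884 and BRD6688 raised Igf1r, by 0.57 (BRD4884) to 0.79 (CI-994) on the log2 scale. Outside the kinase and HDAC inhibitors, Igf1r also passed with rises near that under A-443654. These were T5985871 (0.52), AW00693 (0.52), BTB13120 (0.50) and T5635931 (0.42), the last lost without DMSO replicate C. Vorinostat was the 1 HDAC inhibitor under which a gene of the set fell, with Insr at 52.6 and 68.6 junction RPM (-0.29, adjusted p = 0.0175). That call did not hold without the A library (-0.10, adjusted p = 0.221) or with values centred on the median of all genes (adjusted p = 0.0623). T5985871 lowered Insr to 46.2 (-0.67, adjusted p = 6.32e-04), in a library where the median of all genes was shifted by -0.18.

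Irs1 passed the test under no kinase inhibitor. Its DMSO libraries gave 2.49, 2.67 and 2.099 junction RPM (A, B and C), and the kinase inhibitors ran from 1.93 (SCH-772984) to 3.48 (NVP-AEW-541). It rose under all 4 HDAC inhibitors, with pairs of 11.1 and 7.96 for CI-994, 5.93 and 7.98 for Vorinostat, 5.74 and 6.23 for BRD6688 and 4.28 and 4.17 for BRD4884. Every one of these 8 libraries was above every DMSO library, but the share of all genes without overlap was not counted. The log2 differences ran from 0.70 (BRD4884, adjusted p = 0.00604) to 1.77 (CI-994, adjusted p = 1.43e-06), and 39.6% of all gene and compound pairs were higher under these inhibitors. Outside the kinase and HDAC inhibitors, Irs1 also passed under BTBS00065 (0.83), a call lost without DMSO replicate C. Alk, a receptor mutated in neuroblastoma, gave 30.2, 24.0 and 23.4 junction RPM in DMSO (A, B and C). It fell most under 5-azacytidine, to 7.82 (log2 difference -1.65, SE 0.15, adjusted p = 4.35e-05), and under T5985871, to 9.66 (-1.37, adjusted p = 6.74e-06). Smaller falls passed under AW00693 (-0.61), T5758020 (-0.57) and T5635931 (-0.53), the last lost without DMSO replicate A. SEW06315 raised Alk by a log2 difference of 0.67. NVP-AEW-541 raised Alk to 41.3 (0.68, adjusted p = 0.00420), and CI-994 raised it to 54.5 and 57.2 (1.11, adjusted p = 1.20e-06). Crenolanib (34.4, adjusted p = 0.0495), GNF-5837 (35.0, adjusted p = 0.0286) and A-443654 (17.6, adjusted p = 0.0297) gave calls on Alk that were each lost without at least 1 of the DMSO libraries (A for A-443654, and B or C for the other two, at 0.0744 to 0.124).

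Pdgfra and Pdgfrb, receptors typical of mesenchymal cells, were near zero in DMSO and rose under every HDAC inhibitor. Pdgfra gave 1.23, 1.55 and 1.15 junction RPM in DMSO (A, B and C), against 25.02 and 20.6 for BRD4884, 20.8 and 21.2 for CI-994, 17.8 and 14.9 for BRD6688 and 14.1 and 14.7 for Vorinostat. Its log2 differences ran from 3.04 (Vorinostat, SE 0.17, adjusted p = 1.72e-09) to 3.69 (BRD4884, 1.81e-09). Pdgfrb gave 0.517, 0.337 and 0.2498 in DMSO and between 6.87 (BRD6688 A) and 13.9 (CI-994 B) under the HDAC inhibitors, with log2 differences of 3.11 (BRD6688) to 4.03 (CI-994). Pdgfrb passed the filter of the fit, a mean of at least 1 junction RPM over all libraries, only through these HDAC inhibitor libraries. Its differences under them are therefore a description and not a test result. Neither gene overlapped between DMSO and the HDAC inhibitors, but the share of all genes without overlap was not counted. By the junction test, 39.6% of all gene and compound pairs were higher and 30.4% lower under these inhibitors. Levels per length stayed modest, at most 9.99 RPKM for Pdgfra and 1.53 RPKM for Pdgfrb, both under CI-994. Among kinase inhibitors, NVP-AEW-541 raised Pdgfra to 10.2 junction RPM (log2 difference 2.57, adjusted p = 2.47e-06) and Pdgfrb to 2.99 (2.02, adjusted p = 5.82e-05), and GNF-5837 raised Pdgfra to 5.85 (1.82, adjusted p = 2.22e-05). MK-1775 raised both, Pdgfra by a log2 difference of 1.04 (adjusted p = 0.00371) and Pdgfrb by 1.14 (0.00558), and Trametinib raised Pdgfra (0.84, adjusted p = 0.0132). A-443654 gave a call on Pdgfrb (0.89, adjusted p = 0.031) that was lost without DMSO B (0.0688) or C (0.0713). Outside the kinase and HDAC inhibitors, Pdgfrb was highest under SEW06315, at 3.07 junction RPM (2.05, adjusted p = 1.50e-04). Crenolanib gave 2.98 junction RPM for Pdgfra (0.95, adjusted p = 0.00456), although its RPKM equalled that of DMSO to within 0.01. Pdgfra rises near those under MK-1775 and Trametinib also passed outside both classes: AW00693 (log2 difference 1.10), JFD00822 (1.10), T5635931 (0.85), BTBS00065 (0.83) and T5985871 (0.82). Pdgfrb also passed under BTB12021 (1.19) and BTBS00065 (0.79). The calls of JFD00822 on Pdgfra and BTBS00065 on Pdgfrb were each lost without at least 1 of the DMSO libraries. The summed level of the 6 fibroblast markers was 0.12 RPKM in DMSO (2 of 6 at 0), 1.59 under BRD6688, 4.63 under BRD4884, 8.34 under Vorinostat and 16.34 RPKM under CI-994, where Col1a1 alone made up 11.67 while Col3a1 was at 0.01 and Lum at 0.1. It did not follow the PDGF receptors in every compound: it was 2.77 under MK-1775, 1.87 under T5985871 and 1.8 under A-443654, but 0.91 under NVP-AEW-541 and 0.26 under GNF-5837. The summed level of the immune and endothelial markers went from 1.46 to between 3.38 and 8.05 RPKM under the HDAC inhibitors, and the neuroblastoma markers from 1653.71 to between 1802.67 and 2391.52. The part of these cell types in the result was not tested.

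**Figure D4:**
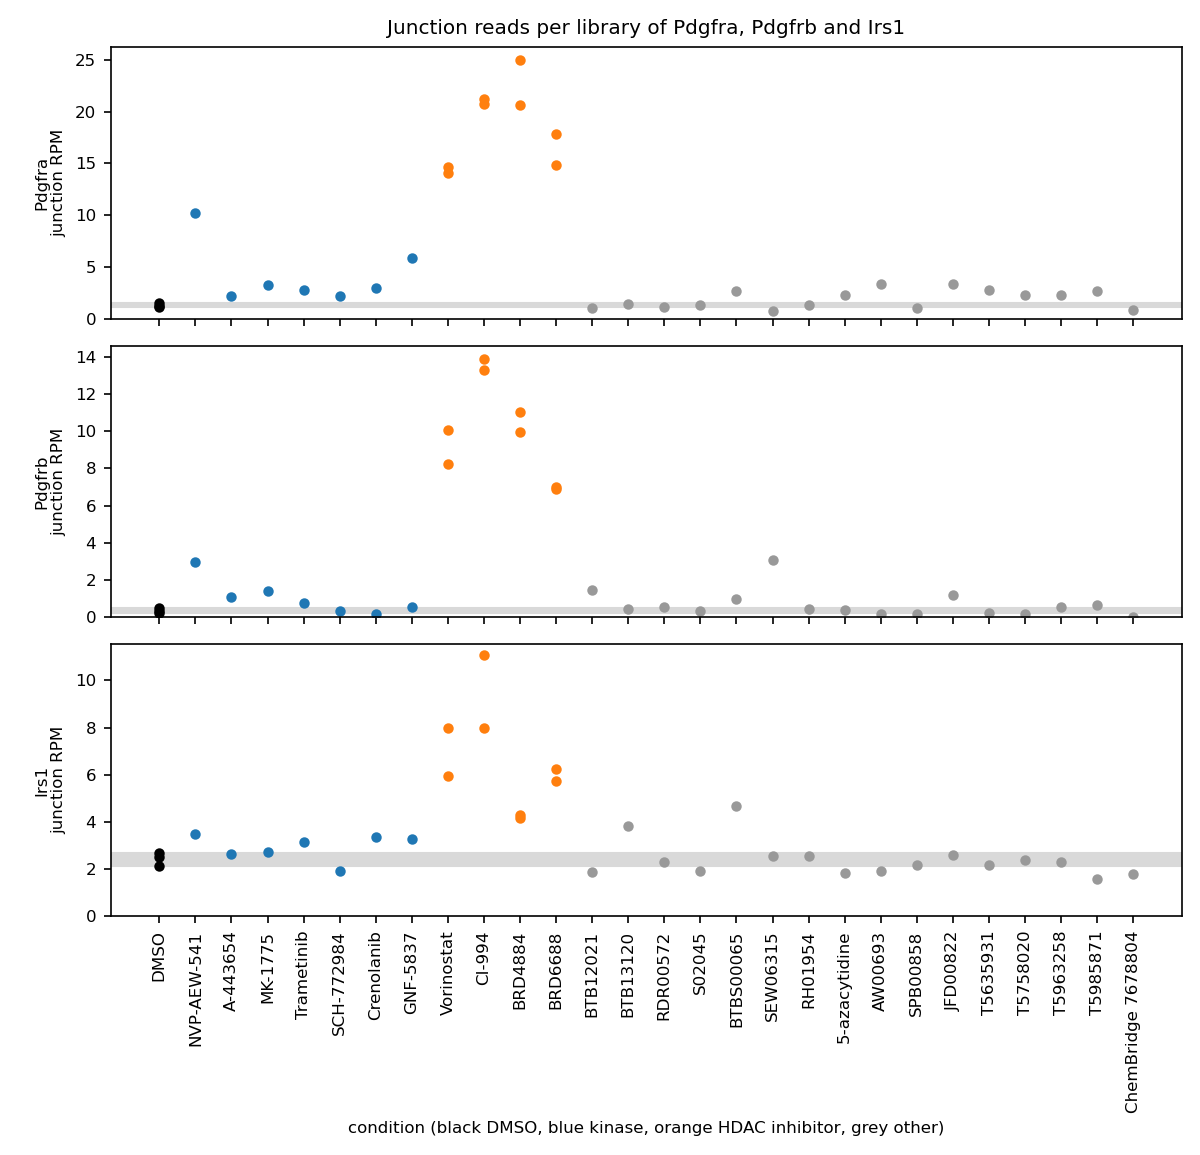
Junction RPM (reads per 1000000 junction reads) of Pdgfra, Pdgfrb and Irs1 in each of the 34 libraries, coloured by class as black DMSO, blue kinase inhibitor, orange HDAC inhibitor and grey other, with a grey band for the range of the 3 DMSO libraries. All 8 HDAC inhibitor libraries lie above the DMSO band for the 3 genes, and NVP-AEW-541 reaches 10.2 for Pdgfra and 2.99 for Pdgfrb. Over all genes, 39.6% of gene and compound pairs were called higher under the HDAC inhibitors.

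In counts, the HDAC inhibitors raised the 9 genes in 32 of 36 pairs of gene and compound and lowered them in 1 (background 39.6% and 30.4%). That was 9 genes for CI-994 (background 39.4% higher and 37.7% lower), 9 for BRD6688 (39.6% and 26.3%), 8 for BRD4884 (39.5% and 21.1%) and 6 for Vorinostat (39.8% and 36.5%). Pdgfrb is counted under each of them, although it passed the filter of the fit only through these libraries. Over the 23 compounds with 1 library, 40 pairs were higher and 24 lower of 207 (background 8.97% and 8.9%). Trametinib had 2 higher and 3 lower (background 12.9% and 9.05%), SCH-772984 1 and 2 (4.35% and 3.6%), Crenolanib 4 and 2 (19.3% and 10.8%), and GNF-5837 4 and 2 (26.6% and 17.9%). NVP-AEW-541 had 5 higher and 0 lower (20.3% and 6.32%), A-443654 3 and 2 (6.78% and 7.04%), and MK-1775 2 and 1 (13.5% and 9.58%). BTBS00065 had 4 and 1 (19.7% and 7.79%), 5-azacytidine 0 and 2 (2.06% and 4.31%), T5985871 2 and 3 (17.7% and 37.3%) and BTB13120 3 and 0 (16.4% and 18.4%). The scale moved the median of all genes by more than 0.1 on the log2 scale for BRD4884 (0.13), BRD6688 (0.11) and T5985871 (-0.18), and the differences above are not corrected for it. The fall of Ret under T5985871 (-0.26, adjusted p = 0.00909) did not hold once centred (-0.03, adjusted p = 0.746).

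The libraries of Trametinib and SCH-772984 (MEK and ERK) were set against those of A-443654 and NVP-AEW-541 (AKT and IGF1R) in the junction fit. This contrast was chosen after the data were seen, and doses differ between the compounds. The SE and p come from the spread among replicate DMSO and HDAC inhibitor libraries, not between compounds. With so few compounds per side, they cannot show a difference between pathway classes. For Ret, A-443654 (680 junction RPM) lay below every DMSO library and NVP-AEW-541 (1271) above. Ret was lower by a log2 difference of -1.84 (SE 0.06, adjusted p = 2.38e-10, limma), Irs2 by -1.54 (1.56e-06) and Igf1r by -0.78 (8.77e-05). Pdgfra (-0.86, adjusted p = 0.0038) and Pdgfrb (-1.19, adjusted p = 0.0012) were also lower, with the NVP-AEW-541 library on the other side of the contrast, and Ntrk3 was higher (0.68, adjusted p = 0.0019). Insr (-0.19, SE 0.11), Irs1 (-0.25) and Alk (0.09) did not pass. Over all genes tested 12.2% were higher and 16.2% lower in this contrast.

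RPKM values allowed a test that does not use DMSO, with compounds as the units and the 16 other compounds as the reference (limma on log2 of RPKM + 0.5, 16357 genes). Across all 6 inhibitors of receptors, AKT, MEK and ERK, 2 of the 9 genes were lower and 0 higher (background 2.06% and 2.79%; 337 genes lower and 457 higher, and 587 and 401 with values centred on their median), namely Irs2 (-1.07, SE 0.28, adjusted p = 0.033) and Ret (-1.36, SE 0.37, adjusted p = 0.0377). Neither call held without Trametinib, SCH-772984, Crenolanib or GNF-5837, with adjusted p of 0.0603 to 0.147. Both held without A-443654 or NVP-AEW-541. With Trametinib and SCH-772984 alone, Irs2 (-1.61, SE 0.18, adjusted p = 7.58e-05) and Ret (-1.56, SE 0.33, adjusted p = 0.0183) were lower and 0 genes of the set higher (background 0.923% and 0.929%), and both compounds lay below all 16 others for each gene. Ret did not pass with Trametinib left out (adjusted p = 0.753) or with SCH-772984 left out (0.0665). Both compounds also lay above all 16 for Ntrk3 (0.73, adjusted p = 0.189) and below all 16 for Igf1r (-0.48, adjusted p = 0.118), without passing. For A-443654 and NVP-AEW-541, 0 of the 9 genes passed (0.0978% of all genes higher and 0.0% lower). Irs2 stood at 0.34 (SE 0.19, adjusted p = 0.683), Insr at 0.17 (SE 0.23), Igf1r at 0.18 (SE 0.15) and Pdgfra at 1.31 (SE 0.40, adjusted p = 0.248) on the log2 scale. At an unadjusted p under 0.05, 1 of the 9 passed in that pair (Pdgfra). Without A-443654, Pdgfra passed (2.19, adjusted p = 0.0179), but that value rests on the 1 library of NVP-AEW-541, which stood apart, and on the spread among the 16 other compounds.

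The genes around the receptors were counted from lists. Of 12 genes of ERK output, the feedback phosphatases, Sprouty and Spred genes and ETS factors that ERK switches on, 10 had more than 5 RPKM, and 10 were lower by over 2-fold under Trametinib, Crenolanib and GNF-5837 and 5 under SCH-772984 (median log2 ratios -3.01, -3.18, -3.40 and -1.51, against -0.11, -0.15, -0.19 and -0.05 over all genes). Dusp6, a phosphatase of ERK, was at 22.01 RPKM in DMSO, 0.69 under Trametinib, 2.71 under SCH-772984, 0.55 under Crenolanib and 0.44 under GNF-5837, but at 44.79 under A-443654 and 32.81 under NVP-AEW-541. By junction reads 10 (Trametinib), 6 (SCH-772984), 11 (Crenolanib) and 11 (GNF-5837) of 11 tested genes of this list fell, with 0 under NVP-AEW-541 and 1 under A-443654. Over all genes 9.05%, 3.6%, 10.8%, 17.9%, 6.32% and 7.04% fell, in the same order. The 4 inhibitors under which Ret and Irs2 fell are those under which this list was low.

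FOXO target genes were counted in the same way, since their rise is the known sign of a block of AKT. Of 14 tested by junction reads, 11 were higher and 0 lower under GNF-5837, 8 and 1 under Crenolanib, 9 and 3 under Trametinib, 4 and 0 under SCH-772984, 8 and 1 under NVP-AEW-541, and 0 and 1 under A-443654. These counts cannot be compared between compounds without the shares of all genes called by the same test, which were 26.6% higher and 17.9% lower for GNF-5837, 19.3% and 10.8% for Crenolanib, 12.9% and 9.05% for Trametinib, 4.35% and 3.6% for SCH-772984, 20.3% and 6.32% for NVP-AEW-541, and 6.78% and 7.04% for A-443654. In RPKM, 7 of 10 above the limit were higher by over 2-fold under GNF-5837, 3 under Crenolanib, 1 under Trametinib, 1 under NVP-AEW-541, and 0 under SCH-772984 and A-443654. Over all genes above the limit, 3.57% were higher under GNF-5837. Some of the list, such as Pik3ip1 (2.45 RPKM in DMSO), Klhl24 (4.27) and Ccng2 (4.45), could enter only through a compound that put them above 5 RPKM. The RPKM counts therefore cannot be read against the share of all genes. The list of 36 genes of insulin and phosphoinositide 3-kinase signalling had 15 of 33 tested genes higher under GNF-5837, 12 under Crenolanib, 10 under Trametinib, 7 under SCH-772984, 10 under NVP-AEW-541 and 0 under A-443654, and between 0 and 4 lower, to be read against the same shares. Its largest RPKM ratios included the transcription factor Foxo3, at 11.29 in DMSO, 27.28 under Trametinib, 32.3 under Crenolanib and 38.36 under GNF-5837, and Pik3r3, a regulatory subunit of phosphoinositide 3-kinase, at 16.35 in DMSO and 40.24 under Trametinib.

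Among 13 co-receptors and binding proteins, 3 or 4 had more than 5 RPKM. The neurotrophin co-receptor Ngfr was at 46.04 RPKM in DMSO, 6.76 under Trametinib, 11.67 under SCH-772984, 3.77 under Crenolanib and 3.29 under GNF-5837. Gfra1, the co-receptor that presents GDNF to RET, took the opposite course, at 3.59 in DMSO and 11.68, 11.38, 11.18 and 11.48 under the same compounds, and 14.54 under NVP-AEW-541. Low Ret thus coincided with high Gfra1 under the 4 inhibitors, whereas NVP-AEW-541 had both high. Of 22 ligands, 20 were in the table and 2 had more than 5 RPKM, with 0 past 2-fold in any of the 6 inhibitors. Of 47 other receptor tyrosine kinases, 5 to 7 had more than 5 RPKM, and 2 were higher under NVP-AEW-541, 1 each under GNF-5837 and Crenolanib, with 1 lower under GNF-5837, Crenolanib and Trametinib (Tyro3 under the last, at 2.14 against 10.7 RPKM). Ltk (1.94 RPKM in DMSO) under NVP-AEW-541 and Egfr (2.83) under Crenolanib entered this count only through the compound that put them above 5 RPKM. By junction reads 12 of 19 tested genes of this list were higher under NVP-AEW-541, whose library stood apart, and 0 to 3 under the other 5 inhibitors. The share of all genes higher was 20.3% for NVP-AEW-541 and 4.35% (SCH-772984) to 26.6% (GNF-5837) for the others. The counts are to be read against these shares.

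Across the 28 conditions, the genes whose log2 RPKM was most like that of a member were sought among 11478 genes (Pearson r, a description in which all points share the cell line and platform). Irs2 was closest to Enc1 (r = 0.981) and Dusp6 (0.967), and Ret to Ngfr (0.925) and Ppfibp2 (0.917). Irs1 was closest to Klf12 (0.917) and Orai1 (0.898), Alk to Tmtc2 (0.887) and Akap6 (0.881), and Ntrk3 to Disc1 (0.825) and Ppfia2 (0.823). Igf1r was closest to Scap (0.821) and Daam2 (0.812), and Insr to Hivep2 (0.774) and Sgip1 (0.754). Enc1 ranged from 10.1 to 226.22 RPKM and Dusp6 from 0.44 to 140.28, both wider than Irs2 (7.83 to 81.87).

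Splice forms of the receptors were compared as percent spliced in (PSI). Of 173 events in the 9 genes with at least 2 passing DMSO libraries, 7 had a DMSO mean of 10 to 90 PSI, in Ntrk3, Igf1r and Insr. Over their 182 measured pairs of event and compound, 7 were higher and 17 lower by at least 10 PSI with every library outside the DMSO range (background 9.48% higher and 9.51% lower; 4 of the 7 events form 2 complementary pairs of acceptor sites). These calls carry no test, and for the HDAC inhibitors an exact permutation test of 2 libraries against 3 could not go below p = 0.1. Ntrk3 held the event with the most calls, a 135-nt exon at chr7:85449178-85449312 of mm9 (chr7:78304292-78304426 of GRCm38, minus strand). It is coding exon 13 of 14 in a transcript of Ntrk3 with 612 codons, fewer than the 825 of the full-length form with the kinase domain. TRKC forms without the kinase domain bind neurotrophin-3 but do not signal through the kinase. The exon is printed in capitals with 20 bases of the neighbouring exons of the transcript on each side in lower case.
Ntrk3 exon: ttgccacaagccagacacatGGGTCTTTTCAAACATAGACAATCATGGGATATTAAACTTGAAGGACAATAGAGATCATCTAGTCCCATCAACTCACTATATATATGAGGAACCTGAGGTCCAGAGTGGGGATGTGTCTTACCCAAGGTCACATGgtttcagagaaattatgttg
The DMSO libraries gave 50.91, 44.71 and 57.27 PSI (A, B and C; mean 51.0 ± 6.28, SD, n = 3). A-443654 gave 25.16, CI-994 26.28 and 29.35, Vorinostat 29.93 and 35.06, and BRD6688 39.19 and 33.44. These values all lay below every DMSO library. MK-1775 (39.43), BTBS00065 (34.47), BTB13120 (35.16), SEW06315 (37.73), T5963258 (40.37) and a ChemBridge library compound (35.31) were the other compounds with lower PSI, and 0 compounds had higher. MK-1775 and T5963258 were no longer past 10 PSI without DMSO replicate C (differences of -8.38 and -7.44). Under the 4 kinase inhibitors that raised total Ntrk3 most the exon was not past 10 PSI, with 50.17 for Trametinib, 47.84 for SCH-772984, 41.38 for Crenolanib and 44.82 for GNF-5837. Each value rests on 86 to 299 reads.

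Igf1r had a 93-nt exon at chr7:75353799-75353891 of mm9 with 25.87, 29.39 and 22.67 PSI in DMSO (A, B and C; mean 25.98 ± 3.36). No annotated transcript matched the exon. It was measured in 23 compounds, and A-443654 and SCH-772984 had no passing value. It was lower under Vorinostat (7.70 and 8.39 PSI), Trametinib (8.77, from 18 reads) and NVP-AEW-541 (13.7), and higher under S02045 (37.66), T5758020 (37.32) and T5985871 (54.0). The value of T5758020 was not past 10 PSI without DMSO replicate C. The acceptor of another Igf1r exon, shifted by 3 nt, was used at 16.28, 6.63 and 10.8 PSI in DMSO and at 35.14 under SCH-772984, 30.02 under T5963258 and 21.45 under BTBS00065.

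Insr has a 36-nt exon that separates the A form of the receptor, without it, from the B form, with it. The exon lies at chr8:3181702-3181737 (minus strand) and is coding exon 4 of 5 in an annotated Insr transcript; it is printed in capitals between 20 bases of its neighbours.
Insr exon: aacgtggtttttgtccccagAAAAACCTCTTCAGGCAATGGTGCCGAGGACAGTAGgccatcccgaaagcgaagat
Its DMSO libraries gave 9.59, 12.59 and 11.39 PSI (A, B and C; mean 11.2 ± 1.51), so most of its junction reads skipped the exon. In 26 measured compounds, the difference from DMSO ran from -8.03 to 4.36 PSI and none passed 10 PSI. A 3-nt shift of another Insr acceptor was past the limit under the ChemBridge compound alone of those measured, by 11.4 PSI. Outside the range of 10 to 90 PSI, further events in Alk, Insr, Ntrk3 and Igf1r passed the same limit in some compounds. The most frequent was a 733-nt intron of Alk with 3.96 PSI in DMSO, in 7 compounds. The share of all events outside that range passing the limit was not counted, so these calls have no background.

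**Figure D5:**
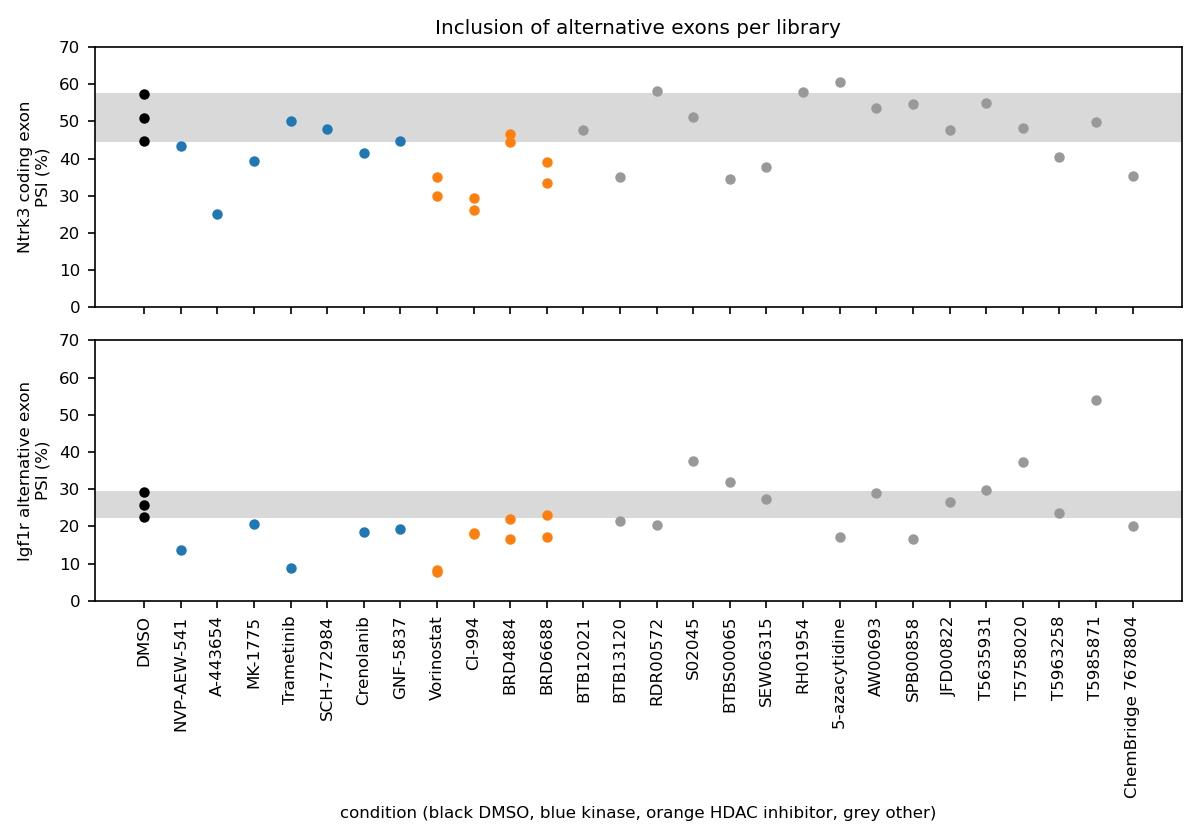
Percent spliced in of the 135-nt exon of Ntrk3 and the 93-nt exon of Igf1r in each library with a passing value, as points coloured by class (black DMSO, blue kinase inhibitor, orange HDAC inhibitor, grey other), with a grey band for the range of the 3 DMSO libraries. For Ntrk3, A-443654 (25.16) and CI-994 (26.28 and 29.35) lie lowest, and for Igf1r, Vorinostat (7.70 and 8.39) and T5985871 (54.0) mark the ends.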

How the data were processed

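PolyA+ RNA-seq libraries (TruSeq RNA v2, which does not mark strand, so overlapping antisense genes cannot be told apart) were processed by the authors. For the deposited RPKM table, the authors ran Salmon (version 0.10.2 in the submitters' processing notes) on GENCODE transcripts, summed the estimates to genes and merged the replicates of DMSO and of the HDAC inhibitors. The deposited percent values (PSI, vast-tools, build mm9) come with a string of junction reads per event and library; all 5440748 junction read values used were whole numbers. The authors' columns of log2 fold change, p-value and FDR against DMSO (edgeR) and their table of pooled splicing estimates were not used.

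Exon-exon junction reads of intron events were summed per gene and library, scaled to reads per 1000000 (RPM) of the library total, and log2(junction RPM + 0.5) was fitted for genes with a mean of at least 1 with limma 3.58.1 (trend, R 4.3.3; 1 coefficient per condition, 6 residual degrees of freedom). A read that spans several junctions counts at each, so the sums are not counts of reads per gene, and the log-scale test was kept in place of a count model. RPKM contrasts used limma on genes above 1 RPKM in any condition. PSI values needed sufficient coverage and balance, and introns 15 reads. Steps were tested on simulated data. Python 3.11.15, pandas 2.3.3, numpy 2.4.6 and matplotlib 3.10.9 were used. Exon sequences came from GENCODE transcripts and GRCm38, and promoters from RefSeq (GRCm38).

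Named genes were the 9 members, the kinase inhibitor targets, at most 3 genes with the largest RPKM ratio per other list, and the 2 genes most like each member. The members and the lists (targets, insulin signalling, FOXO targets, ligands, co-receptors, other receptor tyrosine kinases, ERK output, cell markers) were chosen with earlier results of these data known. Alternatives covered pseudocounts, filters, centring, each DMSO or HDAC inhibitor replicate left out, a replicate block, and stricter PSI limits. Values of some target and marker genes are not reported here.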

Additional observations from a re-analysis of the deposited data

How the results depend on the processing

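Of the results recomputed here, 0 reversed. For RPKM, the pairs past 2-fold rose from 6 higher to 11 with a limit of 1 RPKM, 13 with no limit and 11 with ratios centred on the median of all genes, and with a pseudocount of 1 the ratios of Irs1 under CI-994 and Ntrk3 under GNF-5837 came to 0.97. In the junction fit, the single pair lower under the HDAC inhibitors became 0 with centred values and 0 to 1 when a replicate was left out. The pairs higher under the compounds with 1 library went from 40 to 20 with the replicate letter as a block, to 29 to 36 without a DMSO replicate, and to 35 with no filter. Counts over all genes moved by more than 1.5 times for 16 compounds with the block (Trametinib 2295 to 1345, SCH-772984 830 to 333, A-443654 1444 to 634, MK-1775 2413 to 1355) and for 18 without a replicate of the HDAC inhibitors (SCH-772984 to 2452 and 2501). In the RPKM contrasts they went from 794 to 213 (no filter), 28 (without GNF-5837) and 2451 (without A-443654) for the 6 inhibitors, from 16 to 79 (no filter), 5 (centred) and 352 (without A-443654) for A-443654 and NVP-AEW-541, and from 303 to 54 (without Trametinib) for Trametinib and SCH-772984. The letters do not pair the libraries: deviations of same-lettered libraries correlated at -0.231 to 0.0868 over 8 values. In the RPKM contrasts, the 6 inhibitors had 2 members lower (0 with no filter, 0 to 2 with a compound left out) and 0 higher (0 to 1), A-443654 and NVP-AEW-541 had 0 higher (0 to 1), and Trametinib and SCH-772984 had 2 lower (1 with either left out). For PSI, pairs went from 7 higher to 3 and from 17 lower to 10 at 15 PSI, and without a DMSO replicate to 9 to 12 higher and 20 to 22 lower. In the junction fit, the falls of Ret and Irs2 and the rise of Ntrk3 under Trametinib, Crenolanib and GNF-5837 kept their calls under every alternative run; under SCH-772984, Ntrk3 alone lost its call, with the block (adjusted p = 0.071, limma). With the block the calls of A-443654 on Igf1r (0.49, adjusted p = 0.0702), Insr (0.52, 0.07) and Ret (-0.32, 0.0685) were also not made. The cause of the other changes was not tested. Depth limits Pdgfrb and Pdgfra most.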
